A study of Mus musculus with 5 samples.

Results

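Cholesterol and fatty acid synthesis was examined in natural killer (NK) cells of mouse spleen through 31 genes of the pathway, chosen by name and found under 1 Ensembl ID each among the 56691 genes of the deposited count table. The 31 genes comprise 4 regulators of the sterol-sensing transcription factors (SREBPs), 7 enzymes of the mevalonate steps, 9 of the sterol steps, 1 sterol carrier and 10 enzymes of fatty acid synthesis, and they do not cover every gene of these pathways. All 31 passed the filter on low counts and were among the 30580 genes tested. The cells had been edited by CRISPR against Fli1, an ETS transcription factor (labelled Fli1 KO, 3 libraries), while 2 libraries carry the control label NTC. The labels give neither the strain, age or number of the animals nor the guides, the time after editing or the culture conditions, so whether the numbered libraries come from separate animals is not known and a p-value here reflects the scatter of these libraries alone.

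Animal cells build cholesterol from acetyl-CoA through mevalonate, the isoprenoids and squalene, and fatty acids from the same acetyl-CoA through malonyl-CoA. SREBP proteins are made as precursors in the endoplasmic reticulum, where SCAP escorts them to the Golgi for cleavage when sterols are low and INSIG proteins hold them back when sterols are high. The released fragment enters the nucleus and activates the genes of these steps, SREBP2 (gene Srebf2) mainly those of cholesterol and SREBP1 (gene Srebf1) mainly those of fatty acids. In lymphocytes this programme is known to be raised on activation and growth, when cells need membrane, and in NK cells SREBP activity has been tied to glucose metabolism.

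In 28 of the 31 genes the lowest libraries were Fli1 KO 2 and NTC 2, 1 of each label, and Fli1 KO 1, Fli1 KO 3 and NTC 1 lay above them, an order seen in 13.1% of all genes tested. The exceptions were Me1, Acaca and Fads1 of the fatty acid steps. NTC 1 lay more than 2-fold above NTC 2 in 12 of the 31 genes and below it by that much in 0, against 2.01% and 2.43% of all genes tested. Of the genes over 3 times background, where background is the density of counts per kb of exon on olfactory and vomeronasal receptor genes, 1.47% lay that far above. The order with Fli1 KO 2 and NTC 2 lowest was seen in 34.2% of these genes. Among the members 24 passed this level, and 7 did not (Acat2, Idi1, Fdps, Hsd17b7, Me1, Acaca and Scd1). No gene of the 31 was called different between Fli1 KO and NTC by edgeR's quasi-likelihood test with Benjamini-Hochberg adjustment over all genes (0 of 31 at an adjusted p under 0.05, and 1 of 31 at an unadjusted p under 0.05). DESeq2 and limma-voom also called 0 of 31. Of all genes tested, 0.458% were called higher and 0.0883% lower, 0.546% in either direction, and 8.94% had an unadjusted p under 0.05.

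Promoter sequence is shown for 3 members that differed by more than 2-fold between the NTC libraries: Hmgcs1, which opens the mevalonate route, Cyp51, a sterol demethylase, and Insig1, the sterol-responsive brake on SREBP. Hmgcs1 was the only member with the sterol response element letters TCACNCCAC in its window. The other 2 were chosen after their values were seen, as the members with a single window that came next in the ratio of NTC 1 over NTC 2 and of which at least 100 bases lay upstream of the gene. Each line gives 200 bases, 5′ to 3′ on the gene's strand, that end where the gene begins in RefSeq or GENCODE, whichever is further upstream (RefSeq, GRCm38.p6). Capitals mark TCACNCCAC, CCAAT (the core bound by NF-Y) and GGGCGG (the core bound by SP1), or their reverse complements.
Hmgcs1 at chr13:119690151-119690350, plus strand: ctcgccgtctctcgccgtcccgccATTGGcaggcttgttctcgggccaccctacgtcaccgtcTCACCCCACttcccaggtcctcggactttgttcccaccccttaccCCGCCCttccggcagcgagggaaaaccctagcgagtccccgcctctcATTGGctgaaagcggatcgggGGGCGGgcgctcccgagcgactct
Cyp51 at chr5:4104747-4104946, minus strand: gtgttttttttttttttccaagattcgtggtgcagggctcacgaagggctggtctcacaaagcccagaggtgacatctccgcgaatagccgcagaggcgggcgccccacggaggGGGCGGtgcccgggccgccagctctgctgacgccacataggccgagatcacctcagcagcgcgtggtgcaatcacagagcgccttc
Insig1 at chr5:28071163-28071362, plus strand: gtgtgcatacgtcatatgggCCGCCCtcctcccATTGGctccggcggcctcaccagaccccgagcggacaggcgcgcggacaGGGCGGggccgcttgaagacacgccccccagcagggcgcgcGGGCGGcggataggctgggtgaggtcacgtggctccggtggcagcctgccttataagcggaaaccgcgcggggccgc

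RefSeq windows, from 250 bases before to 50 after each start, were at hand for 24 members. TCACNCCAC stood in that of 1 of the 24 and in 1.44% of all 27025 genes with a window. CCAAT was found for 19 of 24 members (79.2%) against 41.1% of all genes. GGGCGG was likewise found for 19 of 24, against 38.2%, and CACGTG, an E-box that SREBP1 and MYC proteins can bind, for 6 of 24 (25.0%) against 8.09%. The shares over all genes were not limited to genes expressed here, while every member passed the filter on low counts. Shares among expressed genes alone were not taken, so the part of expression in these differences was not tested. Both strands were searched, genes with several windows had more chances of a match, and the motifs do not overlap in the lines above. Fads1, Fdft1, Fdps, Scd1, Scd2, Sqle and Stard4 had no window.

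**Figure D1:**
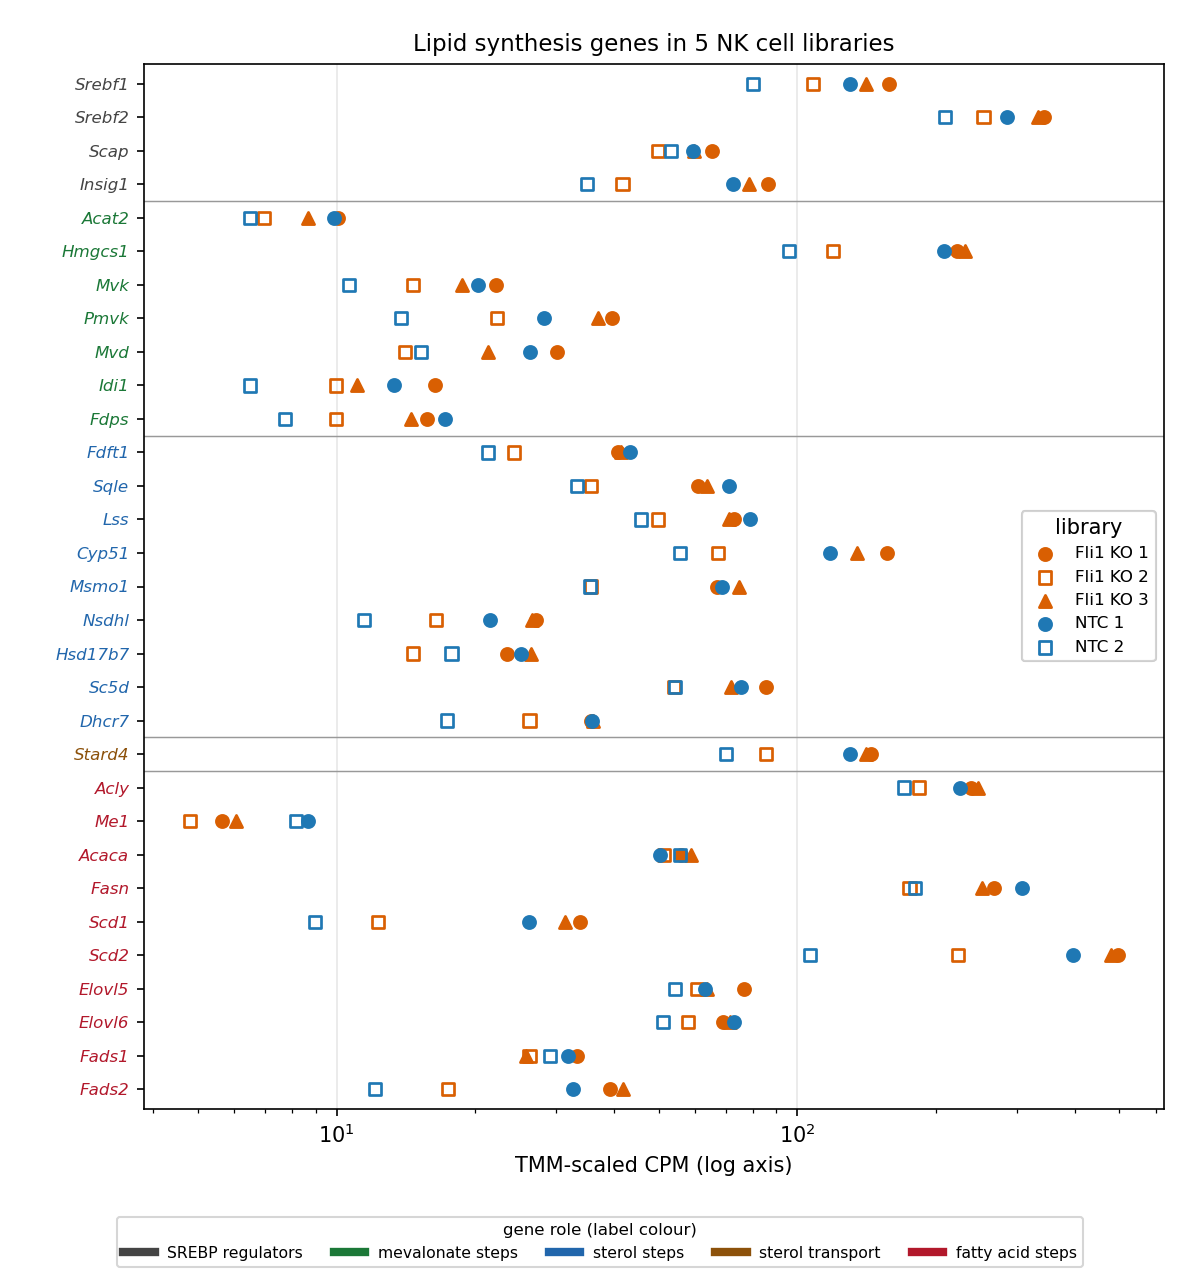
Level of each of the 31 genes in every library, as TMM-scaled counts relative to library size (CPM) on a log axis, with 1 marker per library and gene names coloured by role. In 28 of the 31 rows the open squares of Fli1 KO 2 and NTC 2 lie to the left of the other 3 libraries.

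Values are CPM scaled with TMM factors unless stated otherwise. Total counts ran from 4718390 to 5643791 per library, and the 31 genes had at least 27 counts in each. Fli1 RNA stood at 320 to 390 CPM in Fli1 KO and at 279 and 322 CPM in NTC (adjusted p = 0.641, edgeR). The position and kind of edit are not given, so this level was not used as a check of the labels, and the directions below rest on them. Of 8 NK cell markers all were over 3 times background, while of the markers of T cells 0 of 6, of B cells 0 of 5, of myeloid cells 1 of 6 (Cd68) and of erythroid cells and platelets 0 of 6 were. These multiples of background are means over the 5 libraries. Summed over their lists, T cell markers stood at 50.6 to 56.7 CPM, B cell markers at 27.8 to 36.1 and myeloid markers at 37.2 to 44.7. Erythroid and platelet markers stood at 7.67 to 23.2 CPM, highest in NTC 2, and Hba-a1 was at 0 in both NTC libraries. In NTC 2 the platelet genes Pf4 and Ppbp stood at 8.40 and 9.84 CPM per kb, where receptor genes had 1.75. In NTC 1 they stood at 2.16 and 3.20 CPM per kb, and in Fli1 KO at 1.12 to 2.72 and 1.49 to 3.62.

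The regulators came first. Srebf2, the gene of SREBP2 (ENSMUSG00000022463, GRCm38 chromosome 15, 82147181 to 82205379), stood at 343, 253 and 334 CPM in Fli1 KO 1 to 3 and at 286 and 210 CPM in NTC 1 and NTC 2. Srebf1, the gene of SREBP1 (ENSMUSG00000020538, chromosome 11, 60199089 to 60222581), had 158, 108 and 141 CPM in Fli1 KO and 130 and 80.0 CPM in NTC. In both genes NTC 2 was the lowest library, Fli1 KO 2 the next and Fli1 KO 1 the highest, and the groups overlapped because Fli1 KO 2 lay below NTC 1. The log2 fold change of Fli1 KO over NTC was 0.32 (SE 0.16) for Srebf2 and 0.36 (SE 0.20) for Srebf1, with adjusted p of 0.577 and 0.642 in edgeR.

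Insig1, which retains SCAP and is itself a SREBP target (ENSMUSG00000045294, chromosome 5, 28071363 to 28078662), separated the libraries more widely: 86.4, 41.7 and 78.4 CPM in Fli1 KO 1 to 3 against 72.6 and 34.9 CPM in NTC 1 and NTC 2. The ratio of NTC 1 to NTC 2 was 2.08, with a 95% counting interval of 1.74 to 2.51. Scap, the escort protein, spanned a narrower range, at 65.2, 49.8 and 59.6 CPM in Fli1 KO and 59.3 and 53.3 CPM in NTC, a ratio of 1.11 between the NTC libraries (0.944 to 1.31). Among the regulators, then, the escort varied least and the sterol-responsive Insig1 most. Other genes, mostly 5830462I19Rik on the opposite strand, cover 13.2% of the exon bases of Scap, and its level is uncertain. The median ratio of NTC 1 over NTC 2 was 1.49 in the 4 regulators, where all genes tested had 0.996 and the 7701 genes over 3 times background had 1.10. These intervals, exact (Clopper-Pearson) and scaled by library size times its TMM factor, cover counting error only and compare 2 libraries, not conditions.

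In all 7 mevalonate genes Fli1 KO 2 and NTC 2 were the lowest libraries, and the order within each set varied from gene to gene. Hmgcs1, the cytosolic HMG-CoA synthase (ENSMUSG00000093930, chromosome 13, 119690379 to 119708260), stood at 222, 119 and 231 CPM in Fli1 KO 1 to 3 and at 208 and 96.1 CPM in NTC 1 and NTC 2, and its promoter is the one above that holds TCACCCCAC. NTC 1 and NTC 2 thus differed by a ratio of 2.17 (1.95 to 2.42), more than Fli1 KO 1 and Fli1 KO 2, which differed by a ratio of 1.86. The log2 fold change between the groups was 0.32 with an SE of 0.51 (edgeR adjusted p = 0.924). An antisense gene, Gm48342, covers 12.1% of its exon bases, and no source used here states whether counting used strand.

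Pmvk, the phosphomevalonate kinase (ENSMUSG00000027952, chromosome 3, 89454541 to 89469013), was the member of this step with the largest difference between the groups. It had 39.5, 22.3 and 36.9 CPM in Fli1 KO and 28.3 and 13.8 CPM in NTC, a log2 fold change of 0.62 (SE 0.36, edgeR adjusted p = 0.693). Its Fli1 KO libraries lay on both sides of NTC 1. Mvk, the mevalonate kinase before it, stood at 22.2, 14.6 and 18.7 CPM in Fli1 KO and at 20.3 and 10.7 CPM in NTC. Mvd, the decarboxylase after it, was the only one of the 7 in which Fli1 KO 2 was lowest, with Fli1 KO 2 at 14.1 CPM just below NTC 2 at 15.2 CPM, and 30.1, 21.4 and 26.4 CPM in Fli1 KO 1, Fli1 KO 3 and NTC 1.

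The isoprenoid enzymes were expressed at low levels. Idi1, the isopentenyl diphosphate isomerase, stood at 16.3, 9.99 and 11.1 CPM in Fli1 KO and 13.3 and 6.48 CPM in NTC, and Fdps, the farnesyl diphosphate synthase, at 15.7, 9.99 and 14.5 CPM and 17.2 and 7.73 CPM. Acat2, a cytosolic thiolase that joins acetyl-CoA units, had 10.1, 6.96 and 8.66 CPM and 9.88 and 6.48 CPM. All 3 lay within 3 times background (2.11, 2.001 and 2.14 times, in that order for Idi1, Fdps and Acat2), and a share of their transcript sequence also occurs in other genes. Of all words of 50 bases in its transcripts, Acat2 shared 39.1% with other genes (mostly Acat3), Fdps 26.2% (mostly Gm43738) and Idi1 25.3% (mostly Gm13502), so their counts are uncertain. The 7 mevalonate genes had a median ratio of NTC 1 over NTC 2 of 2.002, and 4 of them lay past 2-fold.

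In the sterol steps, Fdft1 commits farnesyl diphosphate to squalene, Sqle oxidises squalene at a rate-limiting step and Lss closes the ring to lanosterol. Sqle (ENSMUSG00000022351, chromosome 15, 59315077 to 59331192) stood at 60.9, 35.7 and 63.7 CPM in Fli1 KO 1 to 3 and at 70.9 and 33.2 CPM in NTC 1 and NTC 2. All 3 Fli1 KO libraries therefore lay between the NTC libraries, and the log2 fold change was 0.02 with an SE of 0.45 (edgeR adjusted p = 0.996). Fdft1 (40.8, 24.3 and 41.5 CPM against 43.3 and 21.3 CPM) and Lss (72.8, 49.8 and 70.9 CPM against 79.1 and 45.7 CPM) also had every Fli1 KO library between the NTC libraries. This held for 5 of the 31 genes, Fdps and Elovl6 being the others, for 9.82% of all genes tested and for 8.65% of those over 3 times background. With the counts scaled by library size alone it held for 10 of the 31 and for 3251 of the 30580 genes tested. Exons of Ctsb on the opposite strand cover 18.3% of those of Fdft1, and its level is uncertain.

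Cyp51, the lanosterol demethylase (ENSMUSG00000001467, chromosome 5, 4081145 to 4104746), was the sterol gene with the widest spread among the Fli1 KO libraries. It had 157, 67.2 and 135 CPM there and 118 and 55.6 CPM in NTC, and Fli1 KO 1 stood above Fli1 KO 2 by a ratio of 2.33. Msmo1, which removes the next methyl groups, followed with 66.8, 35.7 and 74.8 CPM and with 68.7 and 35.5 CPM, so that Fli1 KO 2 and NTC 2 were almost level. Nsdhl, its partner in demethylation and encoded on the X chromosome, had 27.0, 16.4 and 26.6 CPM in Fli1 KO and 21.5 and 11.5 CPM in NTC (log2 fold change 0.47, SE 0.27, edgeR adjusted p = 0.651).

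The last enzymes varied less, apart from Dhcr7. Dhcr7, the final reductase of the route to cholesterol, had 35.7, 26.2 and 36.1 CPM in Fli1 KO and 35.9 and 17.3 CPM in NTC, a ratio of 2.07 between NTC 1 and NTC 2 (1.597 to 2.703). Hsd17b7, a sterol ketoreductase, stood at 23.4, 14.6 and 26.4 CPM and at 25.1 and 17.8 CPM, 2.72 times background. Sc5d, the desaturase before Dhcr7, stood at 85.5, 54.0 and 71.9 CPM and at 75.4 and 54.3 CPM. In both of these Fli1 KO 2 lay below NTC 2 and the ratio of the NTC libraries was 1.42 and 1.39. Over the 9 sterol genes the median ratio was 1.92. Stard4, which carries cholesterol between membranes and is a SREBP2 target, had 144, 85.4 and 141 CPM in Fli1 KO and 130 and 70.0 CPM in NTC, a ratio of 1.86 between the NTC libraries (1.63 to 2.12).

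Differences between the NTC libraries in the fatty acid genes were graded, from the widest of all 31 genes to almost none. Scd2, a stearoyl-CoA desaturase that makes monounsaturated fatty acids (ENSMUSG00000025203, chromosome 19, 44293674 to 44306864), was the most abundant member per length of exon, at 90.7, 40.9 and 87.9 CPM per kb in Fli1 KO 1 to 3 and 72.7 and 19.5 CPM per kb in NTC 1 and NTC 2. In CPM these were 496, 223 and 480 against 397 and 106. NTC 1 exceeded NTC 2 by a ratio of 3.73 (3.39 to 4.12), and Fli1 KO 2 stood between them. The log2 fold change of 0.66 had an SE of 0.79 (edgeR adjusted p = 0.887).

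Scd1, its neighbour on the same chromosome, was lower, at 2.97 times background, with the same 2 libraries lowest. It had 33.7, 12.3 and 31.2 CPM in Fli1 KO and 26.2 and 8.98 CPM in NTC, a ratio of 2.91 between the NTC libraries (2.06 to 4.19). Scd1 and Scd2 shared 4.56% and 3.97% of their words of 50 bases with other genes, mostly with each other. Fads2, the delta-6 desaturase of polyunsaturated fatty acids, had 39.1, 17.5 and 41.9 CPM and 32.6 and 12.1 CPM (ratio 2.69, 1.99 to 3.68). These 3 desaturases had the highest ratios of NTC 1 over NTC 2 among the 31 genes. Fads1, the delta-5 desaturase encoded beside Fads2, did not share the order: it stood at 33.3, 26.2 and 25.8 CPM in Fli1 KO and at 31.7 and 29.0 CPM in NTC (ratio 1.09, 0.872 to 1.37).

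Fasn, the fatty acid synthase, was highest in NTC 1, at 308 CPM, and lowest in Fli1 KO 2 and NTC 2, at 175 and 180 CPM, with 267 and 251 CPM in Fli1 KO 1 and Fli1 KO 3. Acly, which releases acetyl-CoA from citrate for both routes, kept the common order over a narrower range (238, 184 and 246 CPM in Fli1 KO, 225 and 171 CPM in NTC, ratio 1.32). Elovl5 and Elovl6, elongases, had ratios of 1.16 and 1.43 between the NTC libraries. Elovl5 stood at 76.5, 60.6 and 63.7 CPM in Fli1 KO and 62.9 and 54.3 CPM in NTC, and Elovl6 at 68.8, 57.8 and 71.5 CPM and 73.0 and 51.2 CPM.

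Acaca, the acetyl-CoA carboxylase that makes malonyl-CoA, was the member in which NTC 1 lay below NTC 2, at 50.5 and 55.6 CPM, with 55.9, 51.4 and 58.8 CPM in Fli1 KO. Its level was 2.06 times background, and 30.4% of its words of 50 bases also occur in other genes, mostly Gm5182. Me1, the cytosolic malic enzyme that supplies NADPH (ENSMUSG00000032418, chromosome 9, 86581371 to 86695953), was the only member whose groups did not overlap. It stood at 5.65, 4.82 and 6.05 CPM in Fli1 KO and 8.67 and 8.15 CPM in NTC (log2 fold change −0.62, SE 0.24, unadjusted p = 0.018, edgeR adjusted p = 0.406), where 13.7% of all genes had every Fli1 KO library below both NTC libraries. At 1.12 times background its reads cannot be told apart from background. Of the words of 50 bases in Me1, 28.3% also occur in other genes, mostly Gm7049. The median ratio of NTC 1 over NTC 2 in the 10 fatty acid genes was 1.37.

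**Figure D2:**
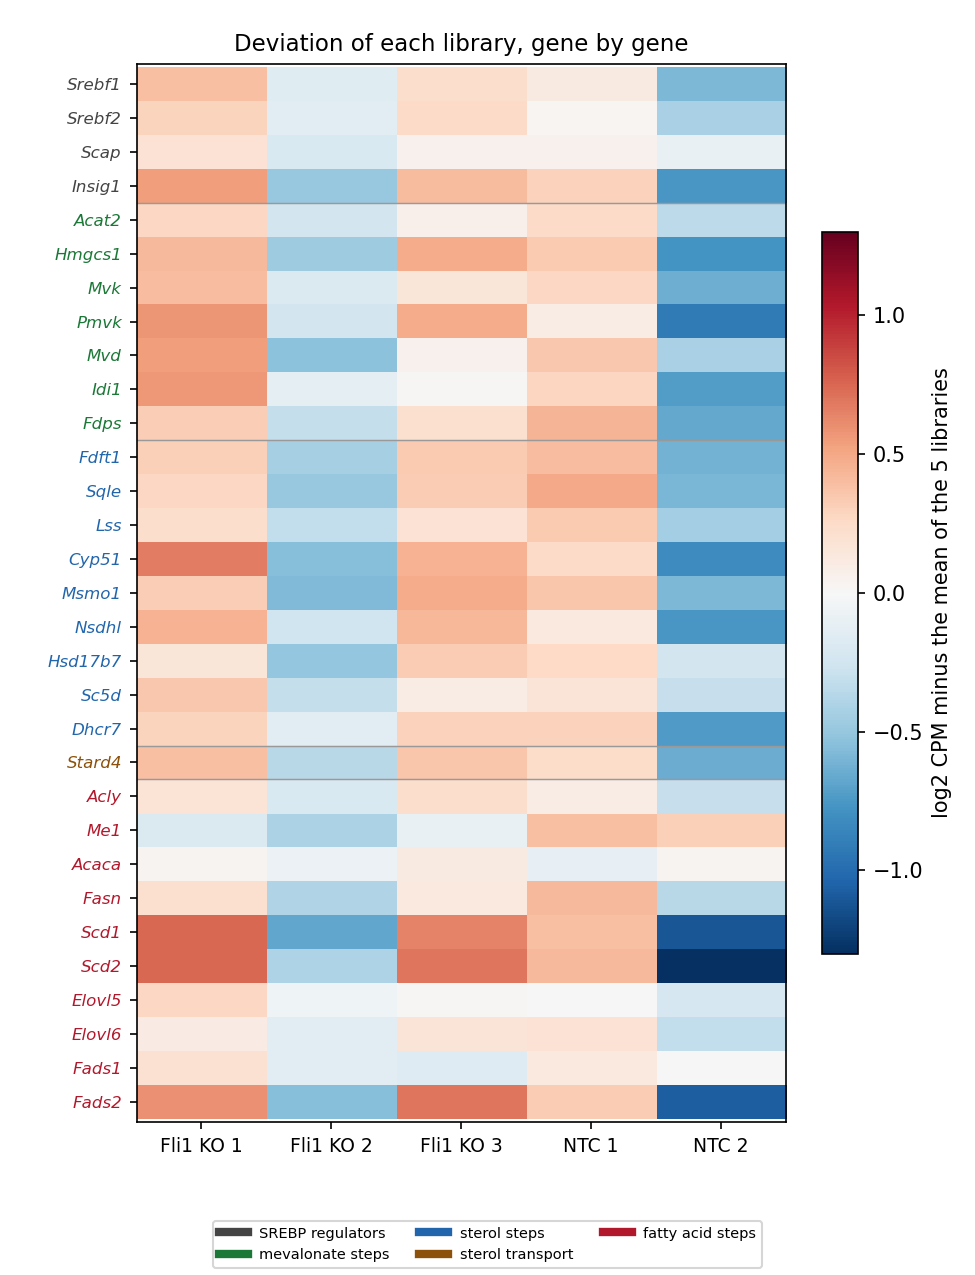
Deviation of each library (columns) from the mean of the 5 libraries for each gene (rows), in log2 CPM, where red is above and blue below the mean. The NTC 2 and Fli1 KO 2 columns are blue in nearly every row, with medians over the 31 genes of −0.58 and −0.31, and the other 3 columns are mostly red, with medians of 0.32, 0.23 and 0.27 in Fli1 KO 1, Fli1 KO 3 and NTC 1.

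Counted over the members, NTC 1 was above NTC 2 in 30 of 31 genes (49.3% of all genes tested, 70.7% of those over 3 times background), and NTC 2 was the lowest of the 5 libraries in 23 (22.4% and 48.3%). Fli1 KO 2 was the lowest of the Fli1 KO libraries in 30 of 31 genes (33.9% and 65.0%). Fli1 KO 2 and NTC 2 together lay below the other 3 libraries in 28, namely in all 4 regulators, all 7 mevalonate and all 9 sterol genes, Stard4 and 7 of 10 fatty acid genes, against 13.1% of all genes and 34.2% of those over 3 times background. The counting interval of the ratio of NTC 1 over NTC 2 lay above 1 in 25 of the 31 genes, against 10.2% of all genes and 31.3% of those over 3 times background. With the counts scaled by library size alone, NTC 1 was again above NTC 2 in 30 genes and Fli1 KO 2 and NTC 2 below the others in 28. Of the 30580 genes tested, 16794 and 3278 showed the same in that scaling. NTC 1 was then the highest of the 5 libraries in 18 members and in 9892 of the 30580 genes. With TMM it was highest in 7 members and in 19.0% of all genes. The labels do not say that a replicate number marks a shared animal, culture or preparation.

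Within the Fli1 KO group the same split was seen. Fli1 KO 1 lay above Fli1 KO 2 by a median log2 difference of 0.66 over the 31 genes and Fli1 KO 3 above Fli1 KO 2 by 0.52, while Fli1 KO 1 and Fli1 KO 3 differed by 0.05. Over the genes past 3 times background these medians were 0.19, 0.12 and 0.07. By role, the median difference of Fli1 KO 1 over Fli1 KO 2 was 0.49 in regulators, 0.69 in mevalonate genes, 0.71 in sterol genes and 0.36 in fatty acid genes. The difference between NTC libraries was ordered in part likewise (0.57, 1.001, 0.94 and 0.45), with the mevalonate and sterol steps above the regulators and fatty acid steps in both groups. Differences between roles were not tested.

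**Figure D3:**
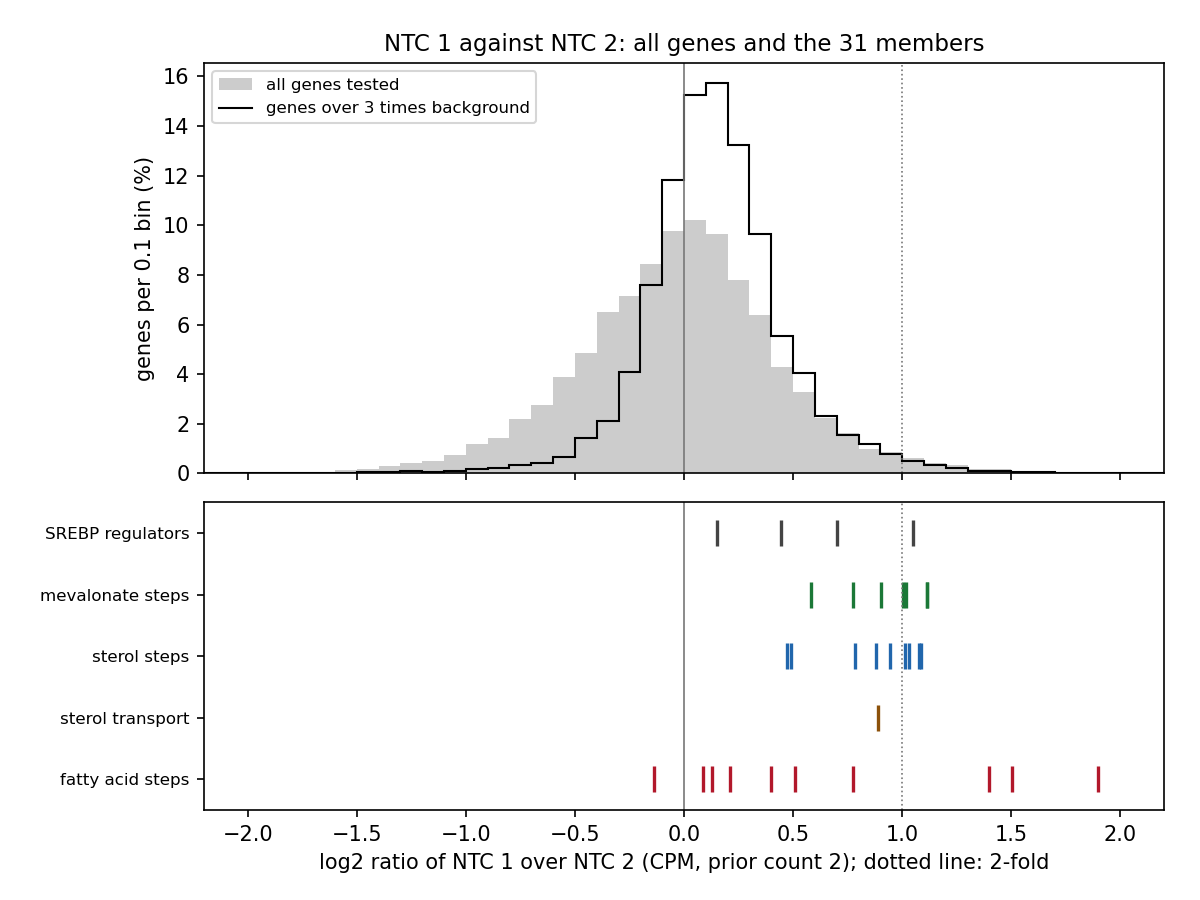
Log2 ratio of NTC 1 over NTC 2 (prior count of 2). Above, the percentage of genes per bin for all genes tested (grey) and for genes over 3 times background (line). Below, 1 tick for each of the 31 genes by role. Ticks lie right of 0 for 30 of 31 genes, and 12 lie past the dotted line at 2-fold, with Scd2, Scd1 and Fads2 farthest.

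Other features of the libraries moved with this order. Gm10800, a satellite-like gene, took 15.4%, 16.4% and 13.8% of all counts in Fli1 KO 1 to 3 and 10.3% and 19.0% in NTC 1 and NTC 2. The density on receptor genes was 1.5003, 1.66 and 1.45 CPM per kb in Fli1 KO and 1.36 and 1.75 CPM per kb in NTC, so that both were highest in NTC 2 and Fli1 KO 2 and lowest in NTC 1. The summed level of the 8 NK cell markers, most of it Gzma and Prf1, was 8242, 5584 and 6876 CPM in Fli1 KO and 5992 and 4055 CPM in NTC. Not every marker followed: the receptor gene Klrk1 stood at 327, 323 and 325 CPM in Fli1 KO and 387 and 394 CPM in NTC. Tbx21 had 75.9, 68.5 and 73.6 CPM against 95.2 and 107 CPM. Ncr1 had 276, 231 and 247 CPM against 359 and 278 CPM. Prf1 was lower in NTC 1, at 923 CPM, than in Fli1 KO 2, at 1017 CPM. Klrb1c, Nkg7, Eomes and Gzma had Fli1 KO 2 and NTC 2 below the other libraries. The part of these features in the lipid gene result was not tested, and in bulk RNA fewer cells of a kind and less RNA per cell cannot be told apart.

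Against each NTC library separately, the mean of the Fli1 KO libraries gave opposite pictures. Their mean log2 level lay above NTC 2 in 28 of 31 genes, by a median of 0.66, and above NTC 1 in 6 of 31, with a median of −0.15. The same medians over genes past 3 times background were 0.19 and 0.04. Of the 30580 genes tested, the Fli1 KO mean lay above NTC 2 in 13857 and above NTC 1 in 14482. Of the 7701 genes over 3 times background, it did so in 5794 and 4348. By role, the median against NTC 2 was 0.65 in regulators, 0.76 in mevalonate genes, 0.66 in sterol genes and 0.35 in fatty acid genes, and against NTC 1 it was 0.00, −0.19, −0.27 and −0.12. The single Fli1 KO libraries were not alike. Over the 31 genes, Fli1 KO 1 to 3 had medians of 0.14, −0.60 and 0.02 against NTC 1. Against NTC 2 their medians were 0.92, 0.18 and 0.79. The 2 comparisons share the Fli1 KO libraries.

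With both NTC libraries in the fit, 27 of the 31 log2 fold changes were positive and 4 negative (Me1, Fads1, Fasn and Hsd17b7), and they ran from −0.62 (Me1) to 0.66 (Scd2). The median was 0.17, beside −0.02 for all genes tested and 0.11 for those over 3 times background. Positive values were found in 14553 of the 30580 genes tested and in 5419 of the 7701 over 3 times background. By role the medians were 0.33 in regulators, 0.23 in mevalonate genes, 0.12 in sterol genes and 0.13 in fatty acid genes. In 0 of 31 genes did every Fli1 KO library lie above both NTC libraries, which 11.9% of all genes and 26.1% of those over 3 times background showed.

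When NTC 1 was left out, so that NTC 2 alone stood for the controls, edgeR called 8 of the 31 higher and 0 lower, and the median was 0.75. Of all genes, 2.14% were called higher in that fit and 0.529% lower. The 8 were both SREBP genes (Srebf1 at 0.78, adjusted p = 0.00157, and Srebf2 at 0.58, adjusted p = 0.037), Pmvk (1.27, adjusted p = 4.1e-05), Fdft1, Sqle, Nsdhl and Dhcr7 of the sterol steps (0.70 to 1.03, adjusted p from 0.00357 to 0.0402) and Stard4 (0.84, adjusted p = 0.00217). Scd2 had the largest value, 1.93, without a call (adjusted p = 0.389), and its Fli1 KO libraries themselves differed by more than 2-fold. In this fit the single control is assumed to vary like the Fli1 KO libraries, and the distance between NTC 1 and NTC 2 no longer counts as error.

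When NTC 2 was left out, 0 of 31 were called in either direction by edgeR, 2 at an unadjusted p under 0.05, against 0.336% of all genes called higher and 0.0787% lower. The median was −0.10, and Sqle (−0.41, adjusted p = 0.732) and Fasn (−0.41, adjusted p = 0.591) stood farthest below 0 after Me1 (−0.65, adjusted p = 0.632). Which NTC library is used thus sets the sign of the median in the members as a whole and in the mevalonate (0.81 or −0.13), sterol (0.75 or −0.21) and fatty acid steps (0.38 or −0.02), while the regulators went from 0.68 to 0.02.

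**Figure D4:**
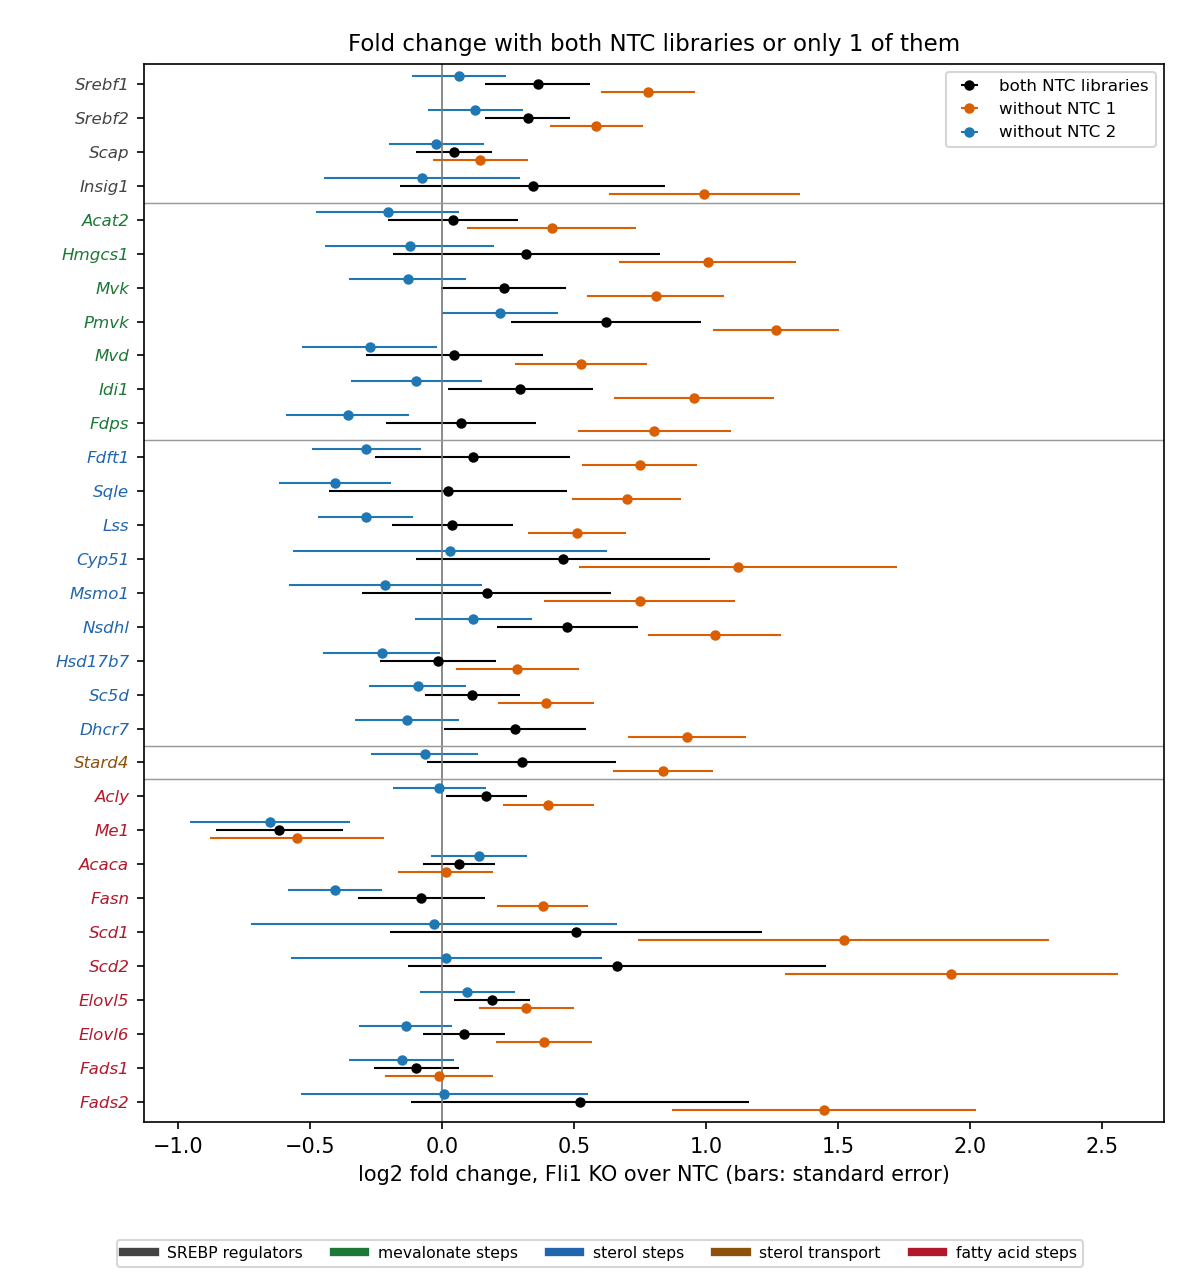
Log2 fold change of Fli1 KO over NTC with its standard error for each gene, fitted with both NTC libraries (black), without NTC 1 (orange) and without NTC 2 (blue). The orange points lie to the right of 0 for all but Me1 and Fads1, the blue points run from −0.65 (Me1) to 0.22 (Pmvk), and the black points rest on 2 controls that differ.

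Neighbouring steps of lipid metabolism were read from 4 further lists. Of 16 further genes of SREBP processing and sterol synthesis, edgeR, DESeq2 and limma-voom each called 0 (1 at an unadjusted p under 0.05 in edgeR), with a median log2 fold change of 0.13. Rnf145, a ubiquitin ligase that acts on SCAP, had the smallest p (112, 103 and 115 CPM in Fli1 KO, 91.5 and 79.2 CPM in NTC, log2 fold change 0.37, adjusted p = 0.361). The median ratio of NTC 1 over NTC 2 in these 16 genes was 1.23.

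Of 21 further genes of fatty acid synthesis and activation, edgeR, DESeq2 and limma-voom each called 0 (3 at an unadjusted p under 0.05 in edgeR), with a median of 0.15 and a median ratio of 1.12 between NTC 1 and NTC 2. Acsl4, an acyl-CoA synthetase for arachidonate, had the smallest p, at 155, 111 and 135 CPM in Fli1 KO and 111 and 82.1 CPM in NTC (log2 fold change 0.46, adjusted p = 0.312). Without NTC 1, edgeR called 2 of the 21 higher, Acsl4 (0.72, adjusted p = 0.00421) and, named after its values were seen, the citrate carrier gene Slc25a1 (0.90, adjusted p = 0.00188), and 1 of the 16 further sterol genes. Acsl3, an acyl-CoA synthetase of lipid droplets, had the widest NTC ratio, 1.67.

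Genes of sterol export, storage and uptake, several of them targets of the liver X receptors that oppose SREBP2, had a median of −0.01 over 16 genes. Each of the 3 tools called 0 of them (3 at an unadjusted p under 0.05 in edgeR). Nr1h2, the gene of liver X receptor beta, stood at 94.0, 79.0 and 84.0 CPM in Fli1 KO and 71.4 and 59.5 CPM in NTC (log2 fold change 0.39, adjusted p = 0.359). The median ratio of NTC 1 over NTC 2 was 1.08, and the widest was that of Soat1, which esterifies cholesterol for storage (1.49). Of 14 genes of fatty acid oxidation, edgeR, DESeq2 and limma-voom each called 0 (0 at an unadjusted p under 0.05 in edgeR), the median was 0.08 and the median ratio 1.02. Acadl, an acyl-CoA dehydrogenase, had the smallest p there (adjusted p = 0.580), and Etfa, an electron carrier subunit, the widest ratio (1.42). Fli1 KO 2 and NTC 2 lay below the other 3 libraries in 9 of 16, 10 of 21, 5 of 16 and 6 of 14 genes of these lists, in the order given. Beside them stand 13.1% of all genes tested and 34.2% of those over 3 times background.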

How the data were processed

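RNA of 5 NK cell libraries was measured. Per the labels' protocols, libraries were made from 10 ng of RNA with an RNA kit that includes an enrichment step. Per the submitters' processing notes, FastQC 0.12.0, Trimmomatic 0.39 and STAR 2.7.11 were used with mm10. Which counter, strand setting and annotation were used is not stated in those sources. The table the authors deposited holds raw counts, whole numbers for each Ensembl gene, and has 0 other sample columns. Symbols were matched for 52073 of 56691 IDs. Coordinates and exon lengths came from GENCODE M21 (GRCm38, which is mm10).

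Genes were kept with filterByExpr (minimum 10 counts), scaled with TMM and tested with edgeR 4.0.16 in R 4.3.3 (robust quasi-likelihood test, Benjamini-Hochberg, called at an adjusted p under 0.05). The common biological coefficient of variation was 0.12. Log2 ratios of libraries used a prior count of 2. Background was the mean density, 1.55 CPM per kb, on 1957 autosomal olfactory and vomeronasal receptor genes. Intervals are at 95%. The alternatives tried were DESeq2 1.42.0, limma-voom (limma 3.58.1), other scalings and filters, the replicate number as a block and each library left out. The fits were tested on simulated data. The 31 genes, the lists and their roles were chosen with earlier results of these data known. The text names all 31, Fli1, and per further list the gene with the smallest p and the gene of at least 5 CPM with the widest NTC ratio, except 1 gene that is not reported here. The order of the libraries was noticed in the values.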

Additional observations from a re-analysis of the deposited data

How the results depend on the processing

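The count of members called was 0 in each direction with DESeq2, limma-voom, scaling by library size alone or by DESeq2's size factors, either filter and each Fli1 KO library left out. Over the libraries left out in turn, it ran from 0 to 8 higher and was 0 lower throughout. Over the same fits the median ran from −0.10 to 0.75 for the 31 genes, from 0.0201 to 0.68 for regulators, from −0.13 to 0.81 for mevalonate genes, from −0.21 to 0.75 for sterol genes and from −0.02 to 0.38 for fatty acid genes, in each case lowest without NTC 2 and highest without NTC 1. Library size alone lowered the median of all genes from −0.02 to −0.14 and that of the 31 to 0.03, with 10 of 31 uncalled values changing sign. Sterol and fatty acid medians were then −0.02 and −0.01. Members past 2-fold between NTC 1 and NTC 2 numbered 13 with library size alone, 12 with a prior count of 0.5 and 9 with one of 5.

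Counts over all genes, 140 higher and 27 lower, were 92 and 71 with library size alone, 239 and 56 with no filter, and 46 to 703 higher and 3 to 174 lower over libraries left out. The cause was not tested.

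With the replicate block, 2 of the further fatty acid synthesis genes and 1 gene of sterol export, storage and uptake were called higher. In the same fit 2 members were called higher (Scd2 at 0.67, adjusted p = 2.98e-07, and Pmvk at 0.57, adjusted p = 0.0184) and 0 lower, the median of the 31 was 0.09, and over all genes 728 (2.38%) were called higher and 193 (0.631%) lower. Only numbers 1 and 2 occur in both groups and the labels do not say what they share, so the block is not taken as a pairing. Fli1 KO 3, alone under its number, adds nothing to the group difference in this fit. Little scatter between libraries is then left to measure error, so its p-values lean on the variance of other genes. Deviations from the group mean correlated across genes with those of NTC 1 at 0.069 for Fli1 KO 1, −0.143 for Fli1 KO 2 and 0.077 for Fli1 KO 3, and NTC 2 mirrors NTC 1 by construction.

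Fewer than 100 counts in some library stood behind 12 members, among them Acat2, Idi1, Fdps and Me1, and their counting intervals are wide, such as 0.686 to 1.66 for the ratio of NTC 1 over NTC 2 in Me1.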
